A study of Mus musculus with 6 samples.

Results

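The cargo receptors of the endoplasmic reticulum (ER) described here are 10 genes: 6 members of the p24 family (Tmed2, Tmed3, Tmed5, Tmed7, Tmed9 and Tmed10), Surf4, the lectins Lman1 and Lman2, and Mcfd2, the partner of Lman1. They were chosen by symbol, with earlier results of these data known. All 10 were found among the 23225 gene symbols of the count table and passed the filter on low counts. The RNA came from tumour-associated dendritic cells, sorted at day 23 from mice with tumours of ID8, an ovarian cancer line of the mouse that forms ascites. There were 3 libraries from wild-type C57BL/6 mice (WT) and 3 from C57BL/6 mice with a conditional deletion of XBP1 in CD11c-positive cells (XBP1-KO). All mice of both genotypes carried the tumour. RNA was isolated separately for each library. The sources used here give no Cre line, sort gate or age. They also do not tie each library to an animal of its own, and p-values therefore cover only the spread among these libraries, which may be technical. Libraries are called a, b and c within a genotype by column order, which pairs nothing.

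Newly made proteins leave the ER in vesicles with a COPII coat, and cargo receptors are the membrane proteins that bind cargo in the lumen and the coat in the cytosol. The p24 proteins form mixed complexes, cycle between ER and Golgi in COPII and COPI vesicles, and are best known for the export of GPI-anchored proteins. Surf4 carries many soluble secreted and lysosomal proteins, and Lman1 binds mannose-rich glycans on cargo together with the calcium-binding protein Mcfd2. XBP1 is a transcription factor of the unfolded protein response that drives genes of the secretory pathway.

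Promoter sequences are given for Surf4, the receptor that fell, and for Tmed9, Tmed3, Tmed10 and Mcfd2, whose levels did not overlap between the genotypes. Each window holds 250 bases before the RefSeq start site and 50 bases from it on, in the assembly GRCm38.p6, and 7 of the 10 genes had a window used here (none was used for Tmed2, Tmed7 and Lman1). Capitals mark CCACG and CCAAT, the building blocks of the ER stress elements, on either strand (CGTGG and ATTGG on the other). The Surf4 window lies at chr2:26933462-26933761 on the minus strand, that of Tmed9 at chr13:55592885-55593184 on the plus strand, that of Tmed3 at chr9:89704994-89705293 on the minus strand, that of Tmed10 at chr12:85374668-85374967 on the minus strand and that of Mcfd2 at chr17:87265898-87266197 on the minus strand.

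Surf4: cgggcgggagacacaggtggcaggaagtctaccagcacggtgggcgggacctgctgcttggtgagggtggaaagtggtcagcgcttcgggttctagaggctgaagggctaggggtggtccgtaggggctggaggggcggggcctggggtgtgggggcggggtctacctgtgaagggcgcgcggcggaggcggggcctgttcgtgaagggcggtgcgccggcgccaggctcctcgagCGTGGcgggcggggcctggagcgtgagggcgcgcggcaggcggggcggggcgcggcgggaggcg
Tmed9: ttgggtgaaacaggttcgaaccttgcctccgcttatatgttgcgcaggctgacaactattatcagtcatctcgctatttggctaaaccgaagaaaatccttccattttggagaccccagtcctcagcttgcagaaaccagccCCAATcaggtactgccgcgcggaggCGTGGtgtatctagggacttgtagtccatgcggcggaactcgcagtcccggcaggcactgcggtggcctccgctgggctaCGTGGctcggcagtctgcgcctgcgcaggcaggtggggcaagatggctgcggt
Tmed3: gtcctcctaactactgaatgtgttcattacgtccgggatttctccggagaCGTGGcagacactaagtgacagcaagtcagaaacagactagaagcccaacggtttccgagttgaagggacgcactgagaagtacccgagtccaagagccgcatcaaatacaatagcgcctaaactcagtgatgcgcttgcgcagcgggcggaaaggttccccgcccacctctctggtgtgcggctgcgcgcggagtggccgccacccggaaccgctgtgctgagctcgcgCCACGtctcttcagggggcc
Tmed10: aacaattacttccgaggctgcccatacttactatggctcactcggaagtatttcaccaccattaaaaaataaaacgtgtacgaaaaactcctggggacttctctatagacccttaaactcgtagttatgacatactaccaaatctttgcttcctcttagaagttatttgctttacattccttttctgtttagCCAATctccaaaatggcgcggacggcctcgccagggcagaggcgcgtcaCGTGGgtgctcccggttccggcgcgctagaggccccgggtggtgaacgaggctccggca
Mcfd2: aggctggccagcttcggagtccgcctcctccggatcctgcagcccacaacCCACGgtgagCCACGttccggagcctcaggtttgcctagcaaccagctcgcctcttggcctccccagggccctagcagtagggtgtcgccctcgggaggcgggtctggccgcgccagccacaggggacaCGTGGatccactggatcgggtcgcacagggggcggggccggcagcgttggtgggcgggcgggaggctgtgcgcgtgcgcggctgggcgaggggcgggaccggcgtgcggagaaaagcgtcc

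CCACG was present in all 7 windows, against 44.2% of 12696 windows of genes tested and 32.8% of 32851 windows in the table. The longer CCACGT, which contains CCACG and the ACGT core known from XBP1 sites, was present in 4 of the 7 (Tmed3, Tmed9, Tmed10 and Mcfd2), against 10.6% of the windows of genes tested. In Tmed9 and Tmed10 it started at positions -4 and -10 from the start site, on the minus strand of the window. The Surf4 window had a single CCACG, at -14, no CCACGT and no CCAAT. The latter was found in 4 of the 7, against 37.8% of windows of genes tested. None of the 7 held the full ER stress element (CCAAT and CCACG separated by 9 bases), ER stress element II (ATTGG and CCACG separated by 1 base) or the element TGACGTGG, which 0.158%, 0.0473% and 0.788% of the windows of genes tested held. Both strands were searched. The windows of the members had a GC content of 49.7% to 75%, with a median of 59%, and those of genes tested a median of 59.7%. These are matches of letters and not measured binding. The receptors were chosen with earlier results of these data known, so the shares of windows describe the list and test nothing.

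Depth lay between 26946349 and 32709100 counts per library. Levels are given as CPM, the count of a gene relative to the total of its library, scaled by TMM factors, which correct for differences in RNA composition between libraries. On the first principal component, with 33.5% of the variance, WT a, b and c lay at -32.8, 9.6 and -59.5. XBP1-KO a, b and c lay at 29.4, 37.5 and 15.8. On the second, with 22.2%, WT b and XBP1-KO b lay at 38.3 and 30.1. The other 4 were spread from -45 (XBP1-KO a) to -1 (WT c). Xbp1 itself had 67.2, 48.7 and 76.8 CPM in the WT libraries and 32.5, 30.9 and 40.4 CPM in those of XBP1-KO, without overlap, and missed the threshold of 0.05 (edgeR, adjusted p 0.0545). It passed under 5 of 16 alternatives, namely DESeq2 (0.0015), no filter on low counts (0.00731), a filter on CPM (0.0464), without WT b (0.0466) and without both b libraries (0.0496), and reached 0.301 without WT c. Summed over the gene, these counts cannot show the deleted stretch. Markers of dendritic cells, led by Cd74 and H2-Aa, summed to 75807 to 122789 CPM in WT and 70726 to 100439 CPM in XBP1-KO. Of these 15 genes 12 lay lower and none passed, with a median log2 fold change of -0.23. Itgax, which encodes CD11c, went the other way and had the smallest p of the list (edgeR, adjusted p 0.106). It had 109.5, 94.3 and 106.1 CPM in the WT libraries and 143.2, 161.1 and 133 CPM in those of XBP1-KO, without overlap. None of the marker genes was at 0 in every library. Macrophage and monocyte markers, led by Lyz2 and C1qb, summed to 16579 to 27954 CPM in the WT libraries and 19632 to 23604 CPM in those of XBP1-KO. This sum rests mostly on Lyz2. Of the 12 genes 5 lay lower and none passed. Without overlap, 2 lay lower (Ccr2 and Mertk) and 1 higher (C1qa). Ccr2 had the smallest p of this list (edgeR, adjusted p 0.0785). Its mean was 2694.6 ± 412.5 CPM for WT, against 1722.5 ± 129.5 for XBP1-KO (SD, n = 3). T and NK cell markers, led by Klrb1c and Cd2, were higher in 14 of 15 genes, 5 of which rose, Xcl1 and Nkg7 first, and summed to 171 to 188 CPM in the WT libraries and 279 to 421 CPM in those of XBP1-KO. B cell markers (Cd79b and Ms4a1 leading) summed to 142 to 329 against 357 to 515 CPM, and neutrophil markers (Retnlg and S100a8) to 115 to 263 against 355 to 464 CPM. Of mast cell markers, Cma1, Cpa3 and Tpsb2 rose, while Kit, the most abundant, lay lower without overlap and did not pass with edgeR (102 ± 35.5 and 63.5 ± 5.99 CPM, SD, n = 3; adjusted p 0.209 with edgeR and 0.0496 with DESeq2), and the sums were 114 to 178 against 137 to 189 CPM. Sums overlapped for plasma cells (Igj and 2010001M09Rik; 58.5 to 74.0 against 53.1 to 70.8 CPM), plasmacytoid dendritic cells (Tcf4 and Ly6d; 177 to 238 against 196 to 282 CPM) and tumour or mesothelial cells (Krt19 and Krt18; 128 to 170 against 109 to 190 CPM). Such sums do not show single genes. Without overlap, 2 of the 9 plasma cell markers lay higher in XBP1-KO and none lower. Of the 8 plasmacytoid markers 1 lay higher and 1 lower, and of the 9 tumour or mesothelial markers 1 lay higher. None of these genes passed. The part of these other cells in the results was not tested. In bulk RNA fewer cells of a type and less RNA per cell cannot be told apart.

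The comparison of the genotypes asks how the levels of the export receptors differ in tumour dendritic cells labelled as deleted for XBP1. Of the 10 receptors, 9 lay lower in XBP1-KO, 1 fell (Surf4) and none rose. Over all 15958 genes tested, 0.288% fell and 0.157% rose. In 5 receptors (Surf4, Tmed9, Tmed3, Tmed10 and Mcfd2) every XBP1-KO library lay below every WT library, which held for 10.4% of all genes tested, and in none did every XBP1-KO library lie above, which held for 8.8%. With library size alone as the scaling 5 lay below and 1, Tmed7, lay above. The median log2 fold change of the 10 was -0.27, against 0.06 over all genes tested, of which 43.9% lay lower. The receptors were chosen with earlier results of these data known, so these shares and medians describe the list and test nothing. Of all genes called 35.2% were higher in XBP1-KO, a share that became 46% with upper quartile scaling, 52% with library size alone and 24% with DESeq2. Leaving out 1 library moved it further, to 93.8% without XBP1-KO c (15 of 16 genes called) and 80% without WT c (4 of 5). The share was 69.2% without XBP1-KO a (9 of 13) and 20.8% without XBP1-KO b (32 of 154). Without WT a it was 39.5% and without WT b 30%. The balance of directions over all genes was thus not stable, and the highest shares rest on few calls.

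**Figure D1:**
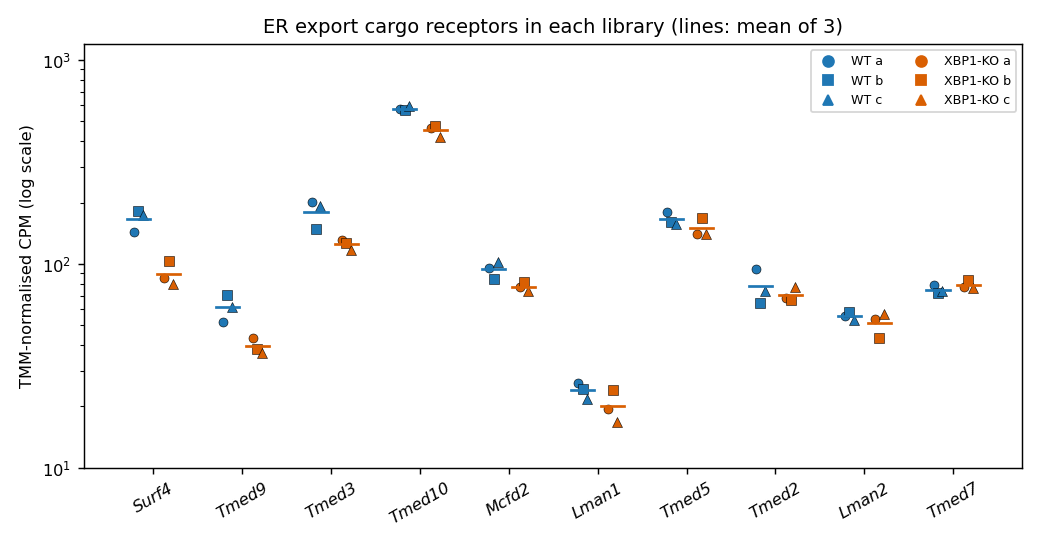
TMM-normalised CPM (log axis) of each receptor in the 3 WT and 3 XBP1-KO libraries, ordered by fold change. Each point is 1 library and lines are means of 3. The XBP1-KO points lie below all WT points for Surf4, Tmed9, Tmed3, Tmed10 and Mcfd2 and mix with them for the other 5.

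Surf4, the receptor for soluble cargo, had the largest fold change of the 10. It had 143, 182 and 175 CPM in WT libraries a, b and c, and 85.6, 103 and 79.4 CPM in those of XBP1-KO libraries a, b and c. The lowest WT value thus lay above the highest XBP1-KO value. The means were 167 ± 20.6 and 89.3 ± 12.2 CPM (SD, n = 3), and the fitted level fell by 46.4%. On the log2 scale this was -0.90 ± 0.14 (SE; edgeR, adjusted p 0.0227). By unadjusted p it was rank 20 of all genes tested. The call held without WT a (adjusted p 0.026), without XBP1-KO b (0.00906) and without both b libraries (0.0345). Leaving out WT c (0.146) or WT b (0.0662) ended it, as did leaving out XBP1-KO c (0.098) or its library a (0.0806), while the log2 fold change stayed between -1.03 and -0.84. Surf4 shares 144 exon bases with Surf2 on the opposite strand, and the strand setting of the counting is not given in the sources used here. Surf2 had 16.8 ± 3.46 CPM in the WT libraries and 19.4 ± 3.37 CPM in those of XBP1-KO (SD, n = 3) and overlapped.

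**Figure D2:**
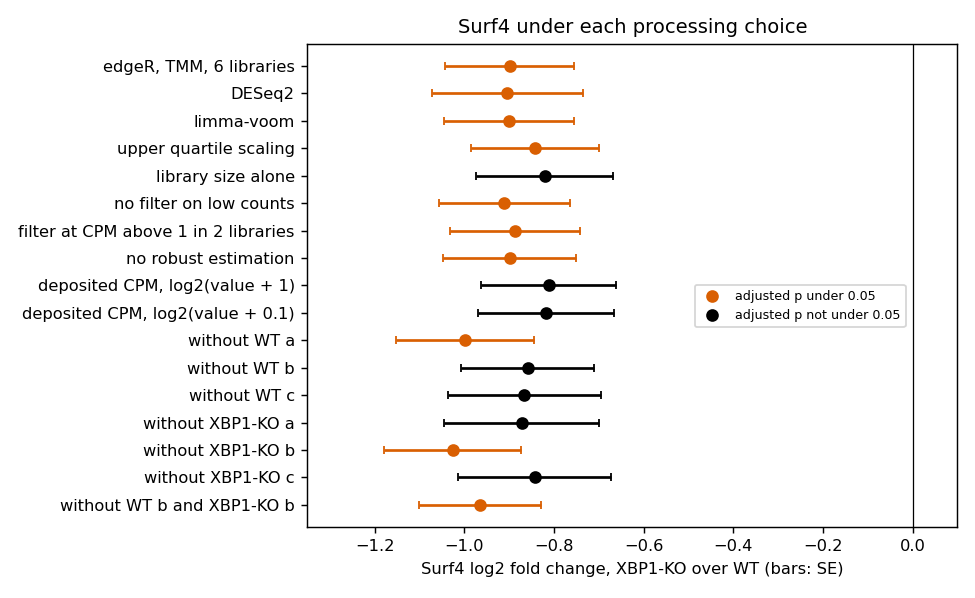
Log2 fold change of Surf4 (XBP1-KO over WT, bars are SE) under the test used and 16 other processing choices, coloured by whether the adjusted p was under 0.05. All values lie between -1.03 and -0.81, and 9 of the 16 alternatives pass the threshold.

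Among the p24 proteins, Tmed9, Tmed3 and Tmed10 separated the genotypes without passing the threshold. Tmed9, a p24 protein of the alpha subfamily, had 51.8, 70.4 and 61.5 CPM in the WT libraries and 43.3, 38.3 and 36.5 CPM in those of XBP1-KO. All 3 XBP1-KO values were below 51.8, the lowest of WT. Its log2 fold change of -0.64 ± 0.15 (SE) missed the threshold (edgeR, adjusted p 0.0866), but it passed with DESeq2 (0.0122) and with no filter on low counts (0.0363). Tmed3, a gamma p24 protein, had 202, 148 and 192 CPM in the WT libraries and 132, 127 and 117 CPM in those of XBP1-KO. WT b was the lowest WT library for this gene and the highest for Tmed9, so the WT libraries did not order the p24 genes alike. On the log2 scale Tmed3 differed by -0.53 ± 0.14 (SE; adjusted p 0.112 with edgeR and 0.044 with DESeq2). Tmed10, the delta p24 protein, had 573, 569 and 593 CPM in the WT libraries and 467, 473 and 421 CPM in those of XBP1-KO. With TMM scaling the WT libraries spanned only 569 to 593 CPM, and the gap to the highest XBP1-KO library was wider than that span. With library size alone the span was wider than the gap. XBP1-KO stood at 0.785 of WT, or -0.35 ± 0.12 (SE) on the log2 scale (edgeR, adjusted p 0.227), and Tmed10 passed under none of the 16 alternatives.

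The other 3 p24 genes overlapped between the genotypes. Tmed2, the beta p24 protein and a partner of Tmed10, had 94.9, 64.5 and 73.7 CPM in the WT libraries and 68.4, 66.7 and 76.9 CPM in those of XBP1-KO. The WT libraries held both the highest and the lowest of the 6 values, and the log2 fold change was -0.14 (SE 0.15, adjusted p 0.745). It was 0.03 without WT a, -0.28 without WT b and -0.23 on leaving out XBP1-KO c. Tmed5, another gamma p24 protein, had 179, 161 and 158 CPM in the WT libraries and 139, 169 and 140 CPM in those of XBP1-KO. XBP1-KO b was the second highest of the 6, while the other XBP1-KO libraries were the lowest, and the log2 fold change was -0.15 (SE 0.13, adjusted p 0.653), or -0.26 without XBP1-KO b and -0.10 without WT a. Tmed5 shares 395 exon bases with Mtf2 on the opposite strand, which had 24.4 ± 3.21 CPM in the WT libraries and 24.1 ± 4.25 CPM in those of XBP1-KO (SD, n = 3).

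Tmed7, a gamma p24 protein known from the transport of Toll-like receptor TLR4, was the only receptor of the 10 with a positive fold change. It had 78.5, 72.1 and 73.5 CPM in the WT libraries and 77.2, 83.2 and 75.9 CPM in those of XBP1-KO. The ranges overlapped, and the log2 fold change of 0.08 (SE 0.12, adjusted p 0.83) was close to the 0.06 median of all genes and was 0.03 on leaving out WT b, 0.02 on leaving out XBP1-KO b and -0.01 with neither of them. Tmed7 shares 838 exon bases on the same strand with the neighbouring gene Ticam2, the adaptor TRAM of TLR4 signalling, so the counting could have divided reads between them. Ticam2, named after its values were seen, had 60.7, 71.9 and 71.8 CPM in the WT libraries and 41.8, 43.6 and 42.3 CPM in those of XBP1-KO. It fell by 0.68 on the log2 scale (SE 0.13; edgeR, adjusted p 0.0486). The call was lost whichever of the 6 libraries was left out, with adjusted p-values from 0.0518 (XBP1-KO b left out) through 0.0569 (WT a), 0.105 (WT b), 0.153 (XBP1-KO c) and 0.169 (XBP1-KO a) to 0.263 (WT c). The level of Tmed7 is uncertain for this reason.

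**Figure D3:**
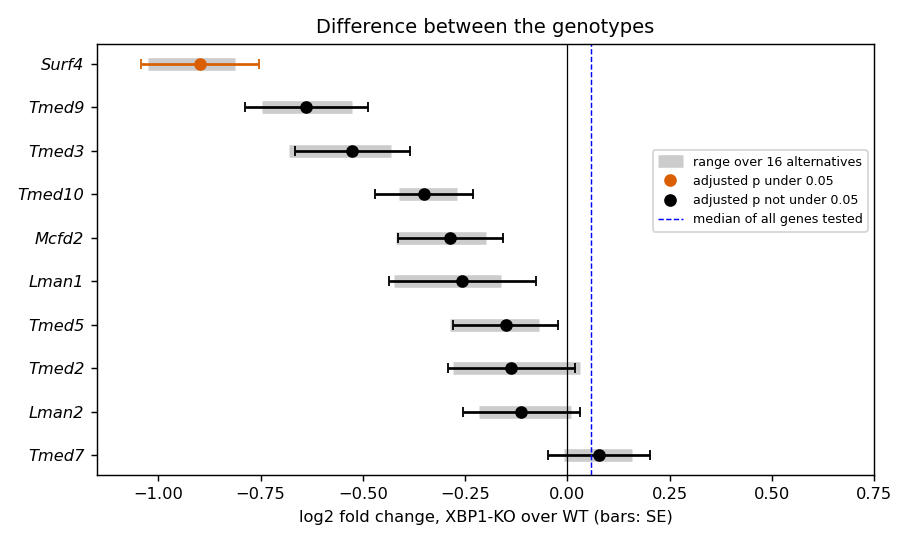
Log2 fold change of each receptor (points, XBP1-KO over WT) with its SE (bars) and the range over the 16 alternatives (grey). Surf4 alone passed the threshold with the test used, and 9 of 10 points lie left of 0 while the median of all genes tested lies at 0.06.

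Of the lectins and their partner, Mcfd2 separated the genotypes and Lman1 and Lman2 did not. Mcfd2 had 96.0, 84.8 and 103 CPM in the WT libraries and 76.9, 81.9 and 73.7 CPM in those of XBP1-KO. The gap between WT b and XBP1-KO b, the nearest pair, was small beside the spread within WT. On the log2 scale Mcfd2 differed by -0.29 ± 0.13 (SE; edgeR, adjusted p 0.373). Lman1, the lectin that needs Mcfd2 for the export of coagulation factors, had 26.0, 24.4 and 21.7 CPM in the WT libraries and 19.4, 24.2 and 16.7 CPM in those of XBP1-KO. XBP1-KO b lay among the WT values and the other XBP1-KO libraries below them, and the log2 fold change was -0.26 (SE 0.18, adjusted p 0.586). Leaving out XBP1-KO b gave -0.42 and leaving out XBP1-KO c gave -0.16. Lman2, a lectin that cycles in the early secretory pathway, had 55.3, 57.9 and 52.9 CPM in the WT libraries and 53.5, 43.3 and 56.7 CPM in those of XBP1-KO. Only XBP1-KO b was below WT, and the log2 fold change was -0.11 (SE 0.14, adjusted p 0.771). Leaving out XBP1-KO b gave -0.02, leaving out XBP1-KO c gave -0.22 and leaving out both b libraries gave 0.01. Per kb of transcript, Mcfd2 stood at 8.46, 7.96 and 10.9 times Lman1 in WT and at 9.08, 7.76 and 10.1 times in XBP1-KO, with overlapping ranges.

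The libraries did not rank alike across the receptors. XBP1-KO c was the lowest of the 6 libraries for 6 receptors, WT b for 2 (Tmed2 and Tmed7), XBP1-KO a for 1 (Tmed5) and XBP1-KO b for 1 (Lman2). WT a was the highest for 4, WT b for 3, WT c for 2 and XBP1-KO b for 1 (Tmed7). The 10 receptors together took 1500, 1434 and 1502 CPM in the WT libraries and 1162, 1210 and 1094 CPM in those of XBP1-KO. These sums did not overlap, and the difference of means was -323 CPM, of which most came from genes other than Tmed10 (-199 CPM without it). No test is given for the sum, since the members were chosen with earlier results known.

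Levels of different genes were compared as CPM per kb of the longest RefSeq-matched transcript in GENCODE M21. In WT, Tmed10 was highest with 390 ± 8.59 CPM per kb (SD, n = 3) and Lman1 lowest with 5.14 ± 0.471, a 75.9-fold range. Tmed3 was second with 134 ± 21.3 CPM per kb, and neither Tmed10 nor Tmed3 overlapped its neighbour in the order. Tmed7, with 53.5 to 58.2 CPM per kb, overlapped Surf4, with 43.6 to 55.4. Surf4, Mcfd2, Tmed5, Tmed9 and Tmed2 formed a run in which each overlapped the next, from 50.8 ± 6.26 CPM per kb for Surf4 to 37.5 ± 7.53 for Tmed2. Lman2 (12.8 ± 0.583 CPM per kb) and Lman1 stood below them without overlap. With the shorter of its transcripts Lman1 had 6.71 ± 0.615 CPM per kb in WT and kept the last place. In XBP1-KO the first 3 places and the last 2 were the same, while Surf4 went from place 4 to place 8 with 27.2 ± 3.72 CPM per kb, next to Tmed9 with 27.7 ± 2.46. Surf4 over Lman1 was 7.84, 10.6 and 11.5 in WT and 6.28, 6.06 and 6.77 in XBP1-KO, a ratio within each library that no scaling can move.

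**Figure D4:**
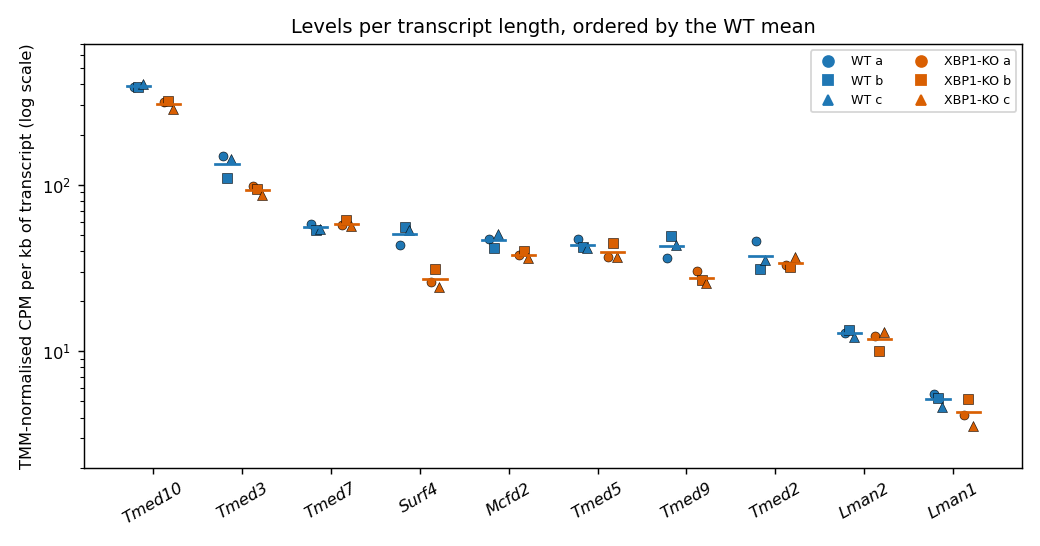
TMM-normalised CPM per kb of transcript (log axis) in each library, ordered by the WT mean; each point is 1 library and lines are means of 3. Tmed10 stands highest, at 390 CPM per kb in WT, Lman1 lowest at 5.14, and Surf4 goes from the fourth to the eighth place in XBP1-KO.

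Further genes of ER export and ER-Golgi traffic were taken from 5 lists. The first held p24, lectin and cargo receptor genes, and also receptors for return to the ER, a SNARE and other ER and Golgi proteins. Of its 24 tested genes, 13 lay lower, none fell or rose and none had all XBP1-KO libraries below WT. The median log2 fold change was -0.01, which is not that of the receptor family alone. The smallest p was that of Ergic3, a cycling membrane protein, with 141 ± 18.7 CPM in the WT libraries and 118 ± 7.25 CPM in those of XBP1-KO (SD, n = 3, adjusted p 0.455). In this list the p24 genes Tmed4, Tmed1 and Tmed8 had log2 fold changes of -0.04, -0.09 and -0.24. The lectin gene Lman2l had 0.01. All of these overlapped between the genotypes (edgeR, adjusted p 0.749 to 0.979). The p24 genes Tmed6 and Tmed11, the lectin gene Lman1l (row slamp) and Kdelr3 were too low to be tested. Of 18 genes of the COPII coat and ER exit sites, 13 lay lower and 1 fell, with a median of -0.25. In 7 every XBP1-KO library lay below every WT library. Over all genes tested, 43.9% lay lower, 0.288% fell and 10.4% lay below without overlap. Sec24d, a cargo-binding subunit of the coat, was the one that fell. It had 37.7, 48.5 and 43.0 CPM in the WT libraries and 17.4, 28.0 and 18.1 CPM in those of XBP1-KO, or -1.02 ± 0.20 on the log2 scale (SE; edgeR, adjusted p 0.0459). Its call held only without XBP1-KO b (0.0063) when 1 library was left out, and was lost on leaving out WT c (0.222), WT b (0.122) or WT a (0.0569), and likewise XBP1-KO c (0.153) or its library a (0.163).

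There were 15 genes of the COPI coat and the Arf1 cycle, which return the receptors to the ER. Of these, 14 lay lower and none passed, with a median of -0.35. In 9 every XBP1-KO library lay below every WT library, which held for 10.4% of all genes tested. Copg, the gamma subunit, had the smallest p (edgeR, adjusted p 0.0527). It had 144 ± 19.7 CPM in the WT libraries and 84.9 ± 14.1 CPM in those of XBP1-KO (SD, n = 3). Copg passed under 4 of 16 alternatives, and with 1 library left out only without XBP1-KO b (0.0279). Its adjusted p reached 0.285. Of 25 tethers and SNAREs of ER-Golgi traffic, 16 lay lower and none passed, with a median of -0.26. Without overlap 11 lay lower and 2 higher, against 10.4% and 8.8% of all genes tested. Nbas, a subunit of the tether for retrograde vesicles at the ER, had the smallest p (edgeR, adjusted p 0.0785). It had 22.9 ± 3.95 CPM in the WT libraries and 11.7 ± 3.02 CPM in those of XBP1-KO (SD, n = 3). Nbas passed under 3 of 16 alternatives, and with 1 library left out only without XBP1-KO b (0.0429). Its adjusted p reached 0.285.

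Genes tied to cargo receptors in other studies were read from a list of 21 tested genes. Not all of them are export cargo of the 10 receptors. Of this list 11 lay lower, against 43.9% of all genes tested, and none passed, with a median of -0.03. In 5 of them (Psap, Il1rl1, Bst2, Grn and Lgals3bp) every XBP1-KO library lay below every WT library and in 2 (Ly6a and Cd55) above, where all genes tested had 10.4% and 8.8%. The smallest p was that of Ly6a, a GPI-anchored surface protein (edgeR, adjusted p 0.0854). It had 25.2 ± 7.49 CPM in the WT libraries and 47.7 ± 8.01 CPM in those of XBP1-KO (SD, n = 3). Ly6a passed under 3 of 16 alternatives, and with 1 library left out only without WT a (0.0415). Its adjusted p reached 0.354. The lysosomal proteins Psap, a known cargo of Surf4, and Grn were named after their values were seen. Psap had 1385, 1596 and 1595 CPM in the WT libraries and 1071, 1126 and 978 CPM in those of XBP1-KO (edgeR, adjusted p 0.0945). It passed under 2 of 16 alternatives, DESeq2 (0.0136) and no filter on low counts (0.041), and reached 0.373. Grn had 837, 834 and 891 CPM in the WT libraries and 567, 766 and 600 CPM in those of XBP1-KO (edgeR, adjusted p 0.229). Of the cargo of Lman1 and Mcfd2, the coagulation factors had higher means in XBP1-KO, with overlap, and the sign of F5 turned when either b library was left out. F5 had 46.5 ± 9.56 and 48.3 ± 12.1 CPM and F8 1.40 ± 0.304 and 2.24 ± 0.869 CPM in WT and XBP1-KO (SD, n = 3), with adjusted p-values of 0.929 and 0.53. Lgals3bp had 209 ± 21.2 and 160 ± 22.3 CPM, Ctsc 2654 ± 287 and 2062 ± 408 CPM and Ctsz 1467 ± 144 and 1282 ± 140 CPM in the WT libraries and XBP1-KO (SD, n = 3), with adjusted p-values of 0.247, 0.366 and 0.595.

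**Figure D5:**
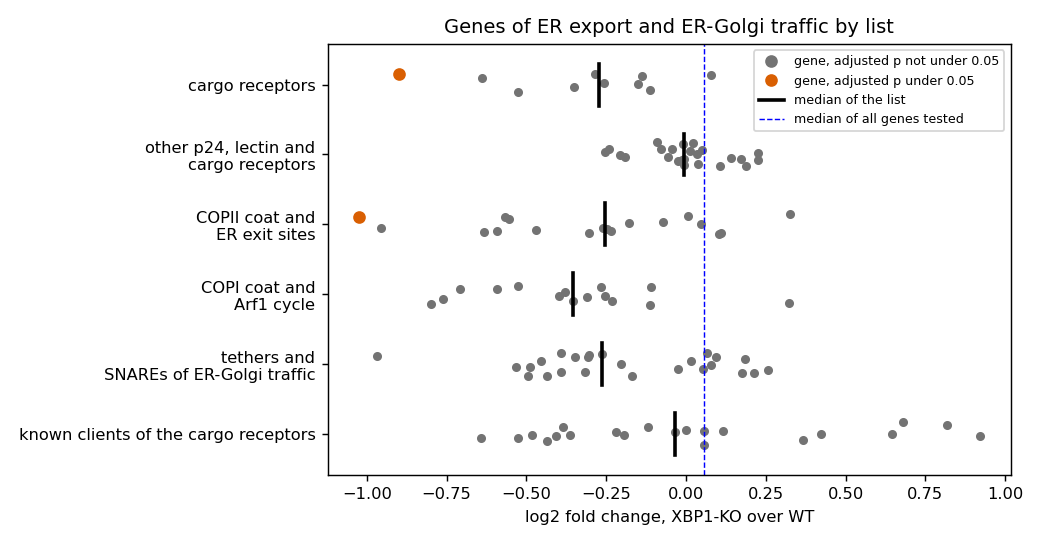
Log2 fold change (XBP1-KO over WT) of every tested gene of the receptors and 5 lists of ER export; each point is 1 gene, bars are list medians and the dashed line is the median of all genes tested. Surf4 and Sec24d alone pass the threshold. The median of the 10 receptors is -0.27, near those of the COPII list (-0.25) and the tethers (-0.26). That of the mixed list of other receptors and further ER and Golgi proteins is -0.01.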

How the data were processed

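RNA-seq counts of 6 libraries were used. The submitters' processing notes name RSEM, edgeR and mm9 without versions or roles. They name no aligner, and for the strand setting nothing is stated. Counts were deposited as whole numbers per gene symbol. The authors' CPM table equals the CPM of those counts (largest difference 5.1e-11) for the 13946 genes above a CPM of 1 in at least 2 libraries. Columns name the genotype and no replicate; none was left out.

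The count test was that of edgeR 4.0.16 (R 4.3.3), the quasi-likelihood F test: filterByExpr (15958 genes kept), TMM, glmQLFit with robust estimation and genotype as its only term, two-sided, with Benjamini-Hochberg adjustment over all genes tested and a threshold of 0.05. SE is the fold change over the square root of F. The procedure was tested on simulated data. Alternatives were DESeq2 1.42.0, limma 3.58.1 (voom, and log2(CPM + 1) and log2(CPM + 0.1) of the deposited CPM values), other scalings and filters, no robust estimation, and libraries left out. Replicate libraries differed by more than sampling noise (chi-square per degree of freedom 22.5 to 74.5). The common biological coefficient of variation was 0.25, so spread between libraries and not depth limits most values.

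The members and all lists were chosen with earlier results of these data known. Named genes were all members, Xbp1, the called genes of each pathway list or otherwise the one with the smallest p, and the leading markers. Ticam2, Surf2, Mtf2, Psap, Grn, Lgals3bp, Ctsc, Ctsz, F5, F8, Il1rl1, Bst2, Cd55, Itgax, Ccr2, Tmed1, Tmed4, Tmed8 and Lman2l stand outside this rule. Promoter windows are from RefSeq. Exon overlaps and transcript lengths are from GENCODE M21 (GRCm38), not the build of the counts.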

Additional observations from a re-analysis of the deposited data

How the results depend on the processing

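The direction of Surf4, Tmed3, Tmed5, Tmed9, Tmed10, Lman1 and Mcfd2 was lower in all 16 alternatives. F5 lay between -0.154 (without XBP1-KO b) and 0.201 with 1 library left out, and was -0.128 without WT b and -0.313 without both b libraries. Tmed2 lay between -0.279 and 0.03 with 1 library left out, the latter without WT a, and without both b libraries Tmed7 was -0.008 and Lman2 0.009. Mtf2 was higher with upper quartile scaling (0.035), library size alone (0.067) and the deposited CPM (0.051 and 0.052), and lay between -0.146 and 0.11 with 1 library left out (0.077 without WT c, 0.11 without XBP1-KO a). The number of receptors called was 3 with DESeq2, 2 with no filter on low counts, 0 with library size alone and 0 with either pseudocount on the deposited CPM, where the adjusted p of Surf4 was 0.0857, 0.0617 and 0.0671. With 1 library left out it was 0 to 1. The count over all genes was 463 with DESeq2, 252 with no filter, 45 without robust estimation, 25 with library size alone and 31 and 29 with the deposited CPM, and 5 (without WT c) to 154 (without XBP1-KO b) with 1 library left out. Calls over the 5 lists of ER export were 13 with DESeq2, 10 with no filter, 3 with a filter at a CPM of 1, and 0 with upper quartile scaling, library size alone, no robust estimation or the deposited CPM, and 0 to 10 with 1 library left out. The receptors' median was -0.217 with upper quartile scaling, -0.19 with library size alone, -0.19 and -0.195 with the deposited CPM, -0.415 without both b libraries, and -0.369 to -0.238 with 1 library left out. The cause of these changes was not tested. No paired analysis was possible because the columns carry no replicate number.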

Other observations

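The make-up of the receptor pool was compared within each library, where scaling cancels; these quantities were chosen after the values were seen and are given without a test. Tmed10 made up 38.2%, 39.7% and 39.4% of the receptors' CPM in WT and 40.2%, 39.1% and 38.5% in XBP1-KO, with overlapping ranges. Surf4 made up 9.55%, 12.7% and 11.6% in WT and 7.37%, 8.51% and 7.26% in XBP1-KO, lower in every XBP1-KO library. Tmed7 made up 5.23%, 5.03% and 4.89% in WT and 6.64%, 6.88% and 6.94% in XBP1-KO, higher in every XBP1-KO library. Its own CPM overlapped between the genotypes, while the sum by which it is divided was lower in every XBP1-KO library. Reads shared with Ticam2 bring further uncertainty to this share. Per kb, Tmed10 stood at 8.45, 12.3 and 11.3 times Tmed2 in WT and at 9.54, 9.93 and 7.66 times in XBP1-KO, with overlap. Tmed10 over Tmed9 was 10.6, 7.75 and 9.24 in WT and 10.3, 11.9 and 11.0 in XBP1-KO, where XBP1-KO a lay just below WT a.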
